A study of Mus musculus with 4 samples.

Results

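The miR content of proangiogenic cells (PACs) from hypercholesterolemic (HC) mice was set directly against that of PACs from mice exposed to cigarette smoke (SMK), without the control library. PACs are marrow mononuclear cells that stick to fibronectin and were recognized by lectin binding together with uptake of acetylated lipoprotein. The members were the miRs with 100 reads per 1000000 (RPM) or more in the HC or the SMK library, which were 156 of the 568 miRs of the table. The HC mice were APOE-/- on a C57BL/6 background and were fed a Western-type diet that began 5 weeks ahead of surgery. The SMK mice were C57Bl/6 and inhaled cigarette smoke for the 14 days leading to surgery. Both groups were 2 months old in the labels, both underwent removal of the femoral artery to make one hindlimb ischemic, and marrow was taken 2 days later and cultured for 4 days. Each library was made from RNA pooled from 4 samples, so there was 1 library per condition and no replicate. Genotype, diet and the absence of smoke change together between the 2 libraries, and their shares cannot be told apart. MiR levels hold no readout of the Apoe gene, so the genotype label was not checked. The study also had 1 library from aging mice (16 months, pool of 2) and 1 from young control mice (CTL, 2 months, pool of 6), whose levels are used only at the end.

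A miR is a short RNA that guides Argonaute proteins to messenger RNAs. Pairing runs mostly through bases 2 to 8 of the miR, called the seed, so that miRs with the same seed share many targets. A miR hairpin has a 5p and a 3p arm, and one of them is usually loaded into Argonaute in preference to the other. In the bone marrow, miR-223 marks blood cells of the myeloid line, and miR-142 is found in all blood cells. MiR-126 marks endothelium and is also found in blood stem cells, and miR-143, miR-145 and miR-199 mark mesenchymal cells and smooth muscle. ApoE, the protein that HC mice lack, clears lipoproteins from the blood and is made in quantity by macrophages.

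Mature sequences were found in RefSeq (GRCm38.p6) for 139 of the 156 miRs. Those below carry part of the main differences and are written with the seed in capitals. No sequence was matched for miR-126a-5p, miR-30b-5p, miR-328-3p, miR-486b-5p, miR-320-3p, miR-151-3p and miR-3970, which are among the main differences too. The first set were lower in the HC library. MiR-10a-5p is shown beside miR-10b-5p because they differ by 1 base (U12A, counted from the 5′ end of miR-10a-5p), and miR-126b-5p because it is made on the strand opposite miR-126a-3p.
miR-126a-3p: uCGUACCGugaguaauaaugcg
miR-126b-5p: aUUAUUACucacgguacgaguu
miR-10b-5p: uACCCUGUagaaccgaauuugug
miR-10a-5p: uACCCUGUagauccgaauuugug
miR-31-5p: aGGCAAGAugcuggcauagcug

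The second set were higher in the HC library. MiR-125a-5p and miR-351-5p are shown because they share the seed of miR-125b-5p, and miR-25-3p because it shares that of miR-92a-3p.
miR-125b-5p: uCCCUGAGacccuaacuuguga
miR-125a-5p: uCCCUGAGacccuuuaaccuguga
miR-351-5p: uCCCUGAGgagcccuuugagccug
miR-92a-3p: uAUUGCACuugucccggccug
miR-25-3p: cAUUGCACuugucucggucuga
miR-501-3p: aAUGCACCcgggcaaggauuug
miR-423-5p: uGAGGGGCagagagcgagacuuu
miR-423-3p: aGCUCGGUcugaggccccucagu
miR-744-5p: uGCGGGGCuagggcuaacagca
miR-484: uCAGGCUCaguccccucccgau
miR-2137: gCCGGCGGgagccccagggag

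The third set differed less between the HC and SMK libraries and were among the most abundant of all.
miR-21a-5p: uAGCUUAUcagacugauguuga
miR-16-5p: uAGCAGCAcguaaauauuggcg
miR-29a-3p: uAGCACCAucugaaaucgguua
miR-223-3p: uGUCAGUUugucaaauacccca

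On the scale of the deposited RPM, most miRs differed by less than 1.6-fold between the HC and SMK libraries, and 22 of the 156 differed by more. RPM are shares of a library and do not show its total miR content. The endothelial miR-126a, miR-10b-5p, miR-31-5p and miR-30b-5p were lower in the HC library. MiR-125b-5p, miR-92a-3p, miR-501-3p, miR-328-3p, miR-486b-5p and a group of GC-rich miRs of modest abundance were higher. A fold is the RPM of the HC library over that of the SMK library, and the range after it is a 95% interval, exact for the 2 counts behind the fold. Such an interval holds counting error alone, so it sets one library against another and not the conditions. No test of the conditions was possible and no p-value is given. Because neither library is a control, the limit was made the same in both directions, above 1.6-fold or below the inverse of 1.6. Of the 156 miRs, 22 were past the limits (14.1%), 16 of them higher (10.3%) and 6 lower (3.85%) in HC. The other 134 lay between the limits, and 96 of the 156 had a fold above 1. The median log2 fold was 0.13 and the SD across miRs 0.50.

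The recovered depth was 1038986 counts in the HC library and 1670010 in the SMK library. At 100 RPM these depths correspond to 104 counts in HC and 167 in SMK, which gives a fold of 1 an interval of 0.776 to 1.29. The interval left out 1 for 116 of the 156 miRs, and it lay wholly past a limit for 14 miRs, 11 higher and 3 lower. In both libraries 141 miRs reached 100 RPM. Only in HC did 12 reach it and only in SMK 3, and 7 of the 16 higher and 1 of the 6 lower miRs entered in this way, so that they had to differ to be members. Just inside the minimum, miR-3535 had 105.9 RPM in HC and 74.8 RPM in SMK, and just outside, miR-503-5p had 93.4 RPM in HC and 89.2 RPM in SMK. The split between higher and lower moved with the scaling between the libraries. Scaling by a trimmed mean (TMM) shifted every log2 fold by -0.25 and gave 11 higher and 11 lower. Scaling to the total reads of each library shifted them by -0.67 and gave 4 higher and 60 lower. That scaling sets the recovered counts over the total reads in the read summary of the study. The summary lists more miR reads than were recovered as counts in both libraries, with the larger gap in HC. Counts and total reads are thus not on the same basis, wherever this scaling is named below. After removal of a trend with GC content, described further on, 4 were higher and 6 lower among the 139 miRs with a sequence. Those 139 held 11 higher and 4 lower before the removal. With the uneven limits that the study used against CTL, 0.8-fold and 1.6-fold, 16 of all 156 were higher and 17 lower.

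**Figure D1:**
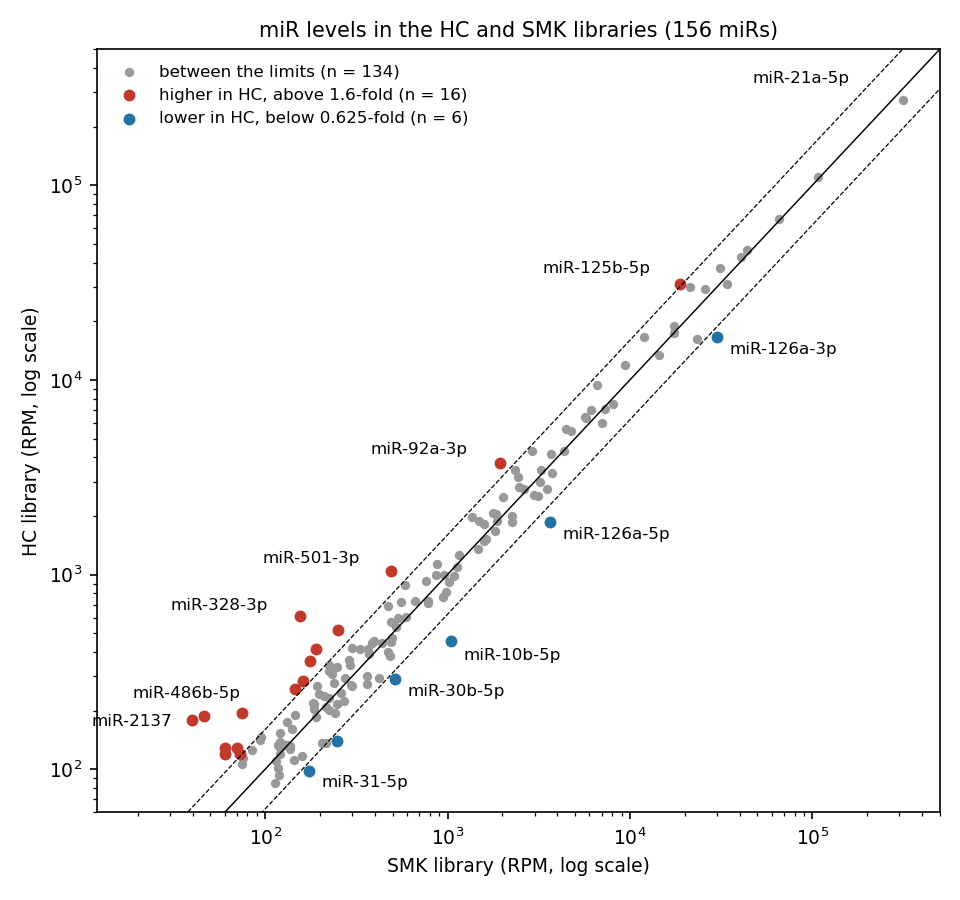
Level of each of the 156 miRs in the HC library (vertical axis, RPM) against the SMK library (horizontal axis, RPM), both on log scales. The solid line marks equal levels and the dashed lines 1.6-fold either way. Most points, 134 of 156, lie between the dashed lines, and miR-126a-3p and miR-125b-5p are the only points above 10000 RPM on average that lie outside them.

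On the deposited scale the most abundant miRs differed little. The 12 miRs with the highest mean level took 73.3% of the HC library and 75.5% of the SMK library, and 10 of them lay between the limits. MiR-21a-5p, the leading miR of both libraries, which lies within Vmp1 on chromosome 11, had 274087 RPM in HC and 313084 RPM in SMK (0.875-fold, 0.871 to 0.879). MiR-16-5p, a repressor of cell cycle genes, had 110889.9 RPM in HC and 107793 RPM in SMK (1.03-fold, 1.02 to 1.04). Let-7f-5p, let-7i-5p and miR-29a-3p followed in the same order in both libraries, at 1.03-fold to 1.06-fold. With total reads miR-21a-5p was at 0.549-fold, miR-142a-3p at 0.571-fold and miR-143-3p at 0.436-fold, all past the lower limit, and miR-143-3p was past it with TMM as well (0.584-fold). On the deposited scale the 2 exceptions were miR-126a-3p, at rank 13 in HC and rank 8 in SMK, and miR-125b-5p, at rank 7 in HC and rank 12 in SMK. By mean level, 18 of 98 miRs under 1000 RPM were past the limits, against 2 of 41 from 1000 to under 10000 RPM and 2 of 17 from 10000 RPM.

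Of 4 miRs made at the miR-126 locus, 3 were lower in the HC library than in the SMK library and the fourth lay just inside the limit. MiR-126a lies within Egfl7, an endothelial gene, on chromosome 2, and miR-126a-3p is known to favor VEGF signaling by repressing Spred1. MiR-126a-3p (chr2:26591402-26591423, plus strand) had 16558 RPM in HC and 30016 RPM in SMK (0.552-fold, 0.542 to 0.561). The other arm, miR-126a-5p, had 1865 RPM in HC and 3667 RPM in SMK (0.509-fold, 0.483 to 0.535). The hairpin of miR-126b lies on the opposite strand, and 19 bases in a row of the reverse complement of miR-126b-5p occur in miR-126a-3p, as the sequences above show. MiR-126b-5p had 139.6 RPM in HC and 246.7 RPM in SMK (0.566-fold, 0.465 to 0.685), and miR-126b-3p had 135.7 RPM in HC and 204.8 RPM in SMK (0.663-fold, 0.541 to 0.809). The ratio of the 3p to the 5p arm of miR-126a within a library was 8.88 in HC and 8.19 in SMK (1.08 times, 1.03 to 1.14). The other listed endothelial miRs, both arms of miR-139, were under 100 RPM and had folds above 1, at 1.08-fold (0.772 to 1.51) for miR-139-5p and 1.93-fold (1.42 to 2.64) for miR-139-3p.

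MiR-10b-5p had the lowest fold of all 156 miRs. It lies in an intron of the homeobox genes Hoxd3 and Hoxd4 (chr2:74726074-74726096, plus strand), and it had 455.3 RPM in HC and 1051 RPM in SMK (0.433-fold, 0.390 to 0.480). MiR-10a-5p, which has the same seed and lies on chromosome 11, had 7049 RPM in HC and 6082 RPM in SMK (1.16-fold, 1.12 to 1.19). The ratio of miR-10b-5p to miR-10a-5p was 0.0646 in HC and 0.173 in SMK, a change of 0.374 times (0.336 to 0.415) that does not depend on the scaling between libraries. Intervals of such ratios are approximate ones, on the log scale, from the 4 counts. The miRs differ by a single base, and how reads were divided between them is uncertain.

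Other miRs typical of mesenchymal cells leaned the same way. Of 9 listed stromal miRs that reached 100 RPM, 2 were lower (miR-10b-5p, named above, and miR-31-5p), none was higher and 8 had a fold below 1. Among all 156 miRs 3.85% were lower and 60 had a fold below 1. The 2 lower miRs are not among miR-143, miR-145 and miR-199, of which no tested one was past a limit on the deposited scale. MiR-31-5p also reached 100 RPM in SMK only and so had to differ to be a member. The median log2 fold was -0.31 for the list, against 0.13 for all 156. Listed members under 100 RPM lay on both sides of 1, with miR-143-5p at 0.694-fold (0.4995 to 0.9538), miR-214-3p at 1.10-fold (0.839 to 1.43), miR-708-5p at 1.22-fold (0.780 to 1.90) and miR-145a-3p at 1.28-fold (0.796 to 2.04). MiR-31-5p, made on chromosome 4, had 98.2 RPM in HC and 174.8 RPM in SMK, or 102 counts in HC and 292 in SMK (0.561-fold, 0.444 to 0.706). MiR-143-3p, a smooth muscle miR, was the most abundant of them, with 16172 RPM in HC and 23236 RPM in SMK (0.696-fold, 0.683 to 0.709). Its neighbor miR-145a-5p was at 0.796-fold (0.704 to 0.898) and the pair miR-199a-3p/miR-199b-3p, which the table lists together, at 0.849-fold (0.823 to 0.876). The exception was miR-34c-5p at 1.07-fold (0.923 to 1.24). Whether these libraries held fewer stromal or endothelial cells or less of these miRs per cell cannot be told apart in pooled cultures.

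MiRs reported to favor angiogenesis followed the miRs just described, since the lists share members. Of 9 listed proangiogenic miRs, 4 were lower, namely both arms of miR-126a, miR-10b-5p and miR-31-5p, and none was higher, beside 3.85% lower among all 156. MiR-31-5p reached 100 RPM in SMK only. The median log2 fold of the list was -0.65. MiR-210-3p, which hypoxia induces, had 136.7 RPM in HC and 215.0 RPM in SMK (0.636-fold, 0.520 to 0.774), just inside the limit. MiR-132-3p, a miR induced by growth factors in endothelium, was at 1.24-fold (1.05 to 1.46) and miR-378a-3p at 1.23-fold (1.17 to 1.29). Among 15 listed antiangiogenic miRs, 2 were higher (miR-92a-3p and miR-320-3p) and none was lower, a share near the 10.3% higher among all 156. Both calls ended with total reads, at 1.22-fold for miR-92a-3p and 1.38-fold for miR-320-3p. The median log2 fold was 0.04, and it was below 0 under every other scaling and after removal of the GC trend.

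The 5 guide strands of the miR-30 family, which share a seed, went apart. MiR-30b-5p had 289.7 RPM in HC and 514.4 RPM in SMK (0.563-fold, 0.492 to 0.643) and was the only one past a limit. MiR-30c-5p was at 0.697-fold (0.608 to 0.799), miR-30a-5p at 0.810-fold (0.773 to 0.850) and miR-30e-5p at 0.890-fold (0.854 to 0.928). MiR-30d-5p, the most abundant member, had 16538 RPM in HC and 11998 RPM in SMK (1.38-fold, 1.35 to 1.41). The ratio of miR-30d-5p to miR-30b-5p was 57.1 in HC and 23.3 in SMK. Summed over the family, the level was 22992 RPM in HC and 19806 RPM in SMK (1.16-fold, 1.14 to 1.18), so that the largest member set the sign of the sum.

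**Figure D2:**
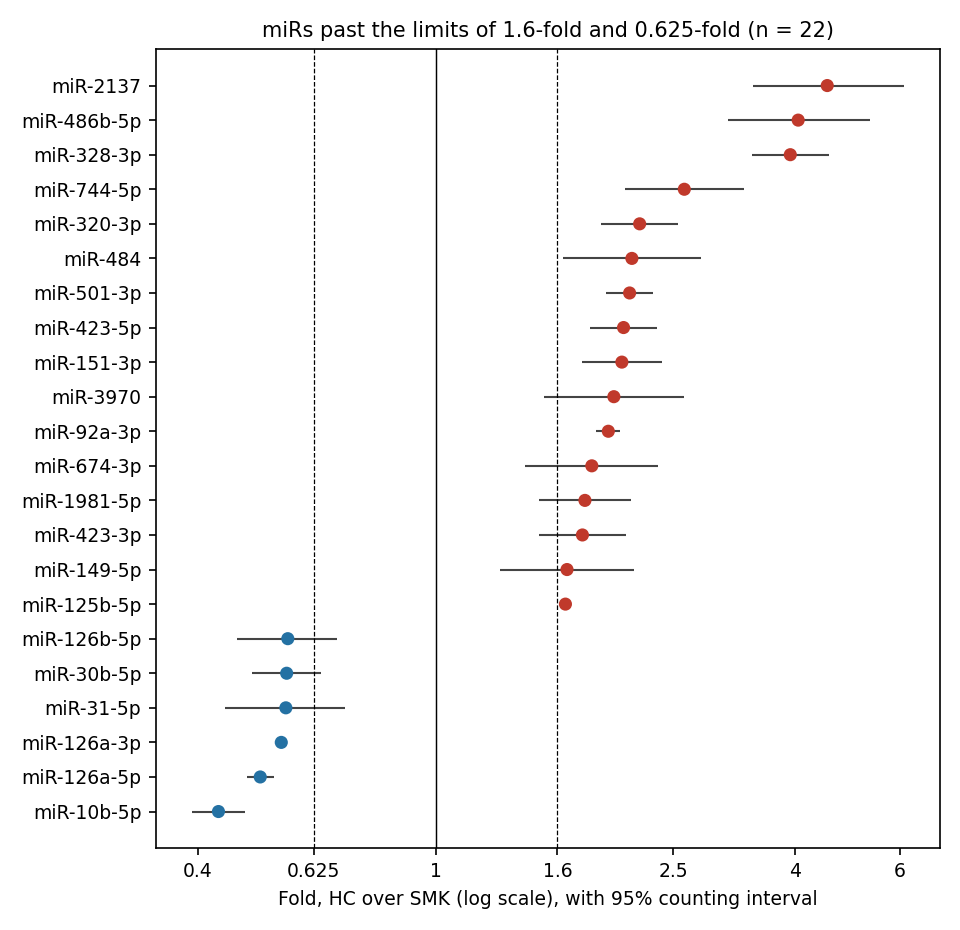
Fold of the HC library over the SMK library for the 22 miRs past the limits, on a log axis, with the 95% counting interval as a bar. Dashed lines mark 1.6-fold either way. The 6 lower miRs run from 0.433-fold to 0.566-fold and the 16 higher ones from 1.65-fold to 4.53-fold, and for 8 of the 22 the bar crosses a dashed line.

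MiR-125b-5p and miR-92a-3p were the abundant miRs that were higher in the HC library. MiR-125b-5p is made from hairpins on chromosomes 9 and 16, is high in hematopoietic stem cells and restrains apoptosis genes. It had 31259 RPM in HC and 18941 RPM in SMK (1.65-fold, 1.62 to 1.68). MiR-125a-5p and miR-351-5p, with the same seed, were at 1.47-fold (1.40 to 1.54) and 1.33-fold (1.14 to 1.55), and the 3 together had 35008 RPM in HC and 21517 RPM in SMK (1.627-fold, 1.603 to 1.651). Of 103 seed families with 100 RPM or more in either library, this was the only one with more than 1 tested member that was past a limit. The call of miR-125b-5p ended under each other scaling, with 1.56-fold by the median ratio and 1.03-fold by total reads. MiR-99a-5p, which is made beside miR-125b on chromosome 16, was at 1.22-fold (1.12 to 1.32). Of 10 listed progenitor miRs, miR-125b-5p was the only one past a limit, and the median log2 fold was 0.21, which became -0.04 with TMM and -0.46 with total reads.

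MiR-92a-3p, which restrains angiogenesis, had 3760 RPM in HC and 1931 RPM in SMK (1.95-fold, 1.86 to 2.04). The call ended with total reads (1.22-fold) and with the GC trend removed (1.54-fold). Its hairpins lie in the miR-17-92a cluster on chromosome 14 and on the X chromosome. Of 6 miRs of the chromosome 14 cluster above 100 RPM it was the only one past a limit, and the other 5 were at or below 1.12-fold. MiR-19b-3p had 818.1 RPM in HC and 983.2 RPM in SMK (0.832-fold, 0.765 to 0.904), miR-20a-5p was at 0.938-fold (0.857 to 1.03) and miR-17-5p at 0.780-fold (0.605 to 0.998). The ratio of miR-92a-3p to miR-19b-3p was 4.596 in HC and 1.964 in SMK, a change of 2.34 times (2.13 to 2.57) on any scaling. Scaling does not adjust for GC content, which is 39.1% for miR-19b-3p and 57.1% for miR-92a-3p. MiR-25-3p, which has the same seed and lies in Mcm7 on chromosome 5, was at 1.31-fold (1.247 to 1.368). Its cluster partners miR-93-5p and miR-106b-3p were at 1.13-fold (1.09 to 1.17) and 1.38-fold (1.17 to 1.63). Across these 3 members of the miR-106b-25 cluster, log2 folds had a median of 0.39. That median was 0.13 with TMM, -0.29 with total reads and 0.0015 with the GC trend removed. Below 100 RPM, cluster members miR-25-5p and miR-93-3p were at 2.19-fold (1.22 to 3.99) and 1.48-fold (1.02 to 2.14). MiR-106b-5p went the other way on few counts, 7 in HC and 28 in SMK (0.402-fold, 0.148 to 0.941).

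The 3 largest folds belonged to miR-2137, miR-486b-5p and miR-328-3p, all of modest abundance. MiR-2137 lies in an intron of Zfp185 on the X chromosome and has a GC content of 85.7%, the highest of the 139 miRs with a sequence. It had 179.0 RPM in HC and 39.5 RPM in SMK, or 186 counts in HC and 66 in SMK (4.53-fold, 3.40 to 6.09). MiR-328-3p had 609.2 RPM in HC and 155.1 RPM in SMK (3.93-fold, 3.39 to 4.56). MiR-486b-5p, a miR of red cell precursors, had 186.7 RPM in HC and 46.1 RPM in SMK (4.05-fold, 3.09 to 5.34). These 3 and miR-744-5p remained above 1.6-fold under each scaling tried. Of them, only miR-328-3p reached 100 RPM in both libraries. MiR-2137, miR-486b-5p and miR-744-5p reached it in HC only and so had to differ to be members. With the GC trend removed, miR-2137 was at 2.41-fold and miR-744-5p at 1.89-fold. MiR-328-3p and miR-486b-5p had no sequence for that removal.

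The other 3 listed miRs of red cell precursors were under 100 RPM, and their folds were all above 1. MiR-451a, which is cut by Argonaute itself instead of Dicer, had 52.0 RPM in HC and 14.4 RPM in SMK (3.62-fold, 2.198 to 6.117). MiR-486a-5p had 34.6 RPM in HC and 13.8 RPM in SMK (2.52-fold, 1.45 to 4.45), and since miR-486a and miR-486b are near copies, how reads were divided between them is uncertain. Together these 2 had 221.4 RPM in HC and 59.9 RPM in SMK (3.70-fold, 2.91 to 4.72). MiR-144-5p, which is made with miR-451a, was at 1.34-fold (0.518 to 3.38) on few counts. The 4 miRs of this list summed to 283.0 RPM in HC and 81.4 RPM in SMK. Their part in the other results was not tested.

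MiR-320-3p, miR-484 and miR-744-5p were all higher in the HC library. The hairpins of miR-320 and miR-484 are known to be made without the Drosha cut that other hairpins need. MiR-320-3p had 415.8 RPM in HC and 189.2 RPM in SMK (2.197-fold, 1.896 to 2.549). MiR-484 had 129.0 RPM in HC and 60.5 RPM in SMK (2.13-fold, 1.63 to 2.79). MiR-744-5p, made in an intron of the kinase gene Map2k4 on chromosome 11, had 195.4 RPM in HC and 74.8 RPM in SMK (2.61-fold, 2.08 to 3.29). Among all 156 miRs 10.3% were past the upper limit. MiR-484 and miR-744-5p reached 100 RPM in HC only and so had to differ to be members, which leaves miR-320-3p as the one that reached it in both libraries. With total reads, miR-320-3p and miR-484 were at 1.38-fold and 1.34-fold. The call of miR-484 ended with the GC trend removed as well (1.54-fold).

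Both arms of miR-423, made in an intron of Nsrp1 on chromosome 11, were higher. MiR-423-5p had 516.9 RPM in HC and 250.3 RPM in SMK (2.06-fold, 1.81 to 2.35), and miR-423-3p had 284.9 RPM in HC and 161.7 RPM in SMK (1.76-fold, 1.49 to 2.09). The ratio of the arms, 5p over 3p, was 1.81 in HC and 1.55 in SMK, a difference within counting error (1.17 times, 0.951 to 1.44). The call of miR-423-3p ended with TMM (1.48-fold), total reads (1.10-fold) and the GC trend removed (1.247-fold), and that of miR-423-5p with total reads (1.29-fold). MiR-151-3p had 360.0 RPM in HC and 175.4 RPM in SMK (2.05-fold, 1.76 to 2.40), and was at 1.29-fold with total reads. Also higher, with intervals that reached below 1.6-fold, were miR-3970 (1.99-fold, 1.52 to 2.61), miR-674-3p (1.83-fold, 1.41 to 2.36), miR-1981-5p (1.78-fold, 1.49 to 2.13) and miR-149-5p (1.66-fold, 1.28 to 2.15). Of these, miR-3970, miR-674-3p and miR-149-5p reached 100 RPM in HC only.

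Among the tested miRs of the Clcn5 introns on the X chromosome, only miR-501-3p was past a limit. It lies at chrX:7241270-7241291 on the minus strand and had 1040.4 RPM in HC and 492.2 RPM in SMK (2.11-fold, 1.93 to 2.32), and 1.32-fold with total reads, which ended the call. MiR-532-5p, the most abundant miR of this cluster, had 2037 RPM in HC and 1838 RPM in SMK (1.11-fold, 1.05 to 1.17). The ratio of miR-501-3p to miR-532-5p was 0.511 in HC and 0.268 in SMK (1.91 times, 1.72 to 2.12). MiR-362-3p and miR-362-5p were at 1.27-fold (1.03 to 1.57) and 1.32-fold (1.08 to 1.61). Under 100 RPM, miR-532-3p was at 2.27-fold (1.59 to 3.25). The other arm, miR-501-5p, was at 1.01-fold (0.600 to 1.67), and miR-500-3p, which shares the seed of miR-501-3p, at 0.984-fold (0.734 to 1.31). The 4 miRs of the cluster above 100 RPM had a median log2 fold of 0.37, and of -0.30 with total reads.

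Several groups lay between the limits with most folds above 1. MiR-222-3p and miR-221-3p, which restrain the receptor c-Kit, share a seed and are made together on the X chromosome. MiR-222-3p had 882.6 RPM in HC and 586.8 RPM in SMK (1.50-fold, 1.37 to 1.65), and miR-221-3p had 5565 RPM in HC and 4451 RPM in SMK (log2 fold 0.32). MiR-191-5p and miR-425-5p, also made together, had almost the same fold, at 1.42-fold (1.38 to 1.46) and 1.46-fold (1.37 to 1.55), and their ratio was 0.210 in HC and 0.204 in SMK, counting miR-425-5p over miR-191-5p. Of 3 tested lymphoid miRs none was past a limit, and the median log2 fold was 0.23, which became -0.03 with TMM. MiR-342-3p, a lymphoid miR made in an intron of Evl, had 4301 RPM in HC and 2919 RPM in SMK (1.47-fold, 1.41 to 1.54), whereas lymphoid miR-150-5p was at 35.6 RPM in HC and 43.1 RPM in SMK (0.826-fold, 0.540 to 1.24). All folds of this paragraph that are above 1 fell below 1 with total reads.

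The miRs of myeloid cells were abundant in both libraries and lay near 1-fold on the deposited scale. MiR-223-3p, which restrains granulocyte activation, had 37472 RPM in HC and 31208 RPM in SMK (1.20-fold, 1.19 to 1.22), and miR-142a-3p, found in all blood cells, had 30954 RPM in HC and 33972 RPM in SMK (0.911-fold, 0.899 to 0.924). None of the 4 tested miRs of the myeloid list, which holds both arms of miR-142a, was past a limit. Their median log2 fold was 0.03, and it was -0.22 with TMM and -0.64 with total reads, where miR-142a-3p was at 0.571-fold and past the limit. Among miRs induced by inflammatory signals, miR-146a-5p, which restrains NF-kB signaling, had 29870 RPM in HC and 21375 RPM in SMK (1.40-fold, 1.38 to 1.42). The other 3 tested were miR-132-3p, named above, miR-155-5p at 1.17-fold (1.05 to 1.30) and miR-146b-5p at 1.09-fold (1.01 to 1.17). The 4 had folds above 1 and a median log2 fold of 0.26, which was 0.01 with TMM and -0.41 with total reads.

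Of 7 miRs that are reported to act on lipid handling and were tested, none was past a limit, 2 had folds above 1, and the median log2 fold was -0.10, against 0.13 over the 156. MiR-33-5p, which represses the cholesterol exporter Abca1, was near the detection limit, with 5 counts in HC and 7 in SMK (1.15-fold, 0.287 to 4.20). The fold was 0.821 (0.777 to 0.868) for miR-27a-3p, and miR-128-3p was at 0.914-fold (0.787 to 1.06) and miR-148a-3p, which represses the LDL receptor, at 1.05-fold (0.998 to 1.10). The liver miR-122-5p had 14.4 RPM in HC and 13.8 RPM in SMK.

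The largest families were nearly level on the deposited scale. The 9 guide strands of the let-7 family, which restrain proliferation, ran from 0.879-fold for let-7g-5p to 1.26-fold for let-7b-5p, and their sum was 181589 RPM in HC and 170077 RPM in SMK (1.07-fold, 1.06 to 1.07). In the miR-29 family, whose members repress collagen genes, miR-29a-3p had 42903 RPM in HC and 40634 RPM in SMK (1.06-fold, 1.04 to 1.07). MiR-29c-3p had 2761 RPM in HC and 3502 RPM in SMK (0.789-fold, 0.754 to 0.825), and the sum of the 3 guide strands with this seed was at 1.03-fold (1.02 to 1.04). The 6 miRs with the seed of miR-16-5p were at 1.03-fold (1.02 to 1.04) in sum, although miR-15b-5p alone was at 1.447-fold (1.306 to 1.603). With total reads the sums over the seeds of let-7, miR-16-5p and miR-29a-3p were at 0.669-fold, 0.645-fold and 0.644-fold, and with TMM at 0.896-fold, 0.862-fold and 0.861-fold. MiR-23, miR-27, miR-24, miR-26 and miR-101 gave no member past a limit. The same held for 11 tested miRs of the let-7 and miR-30 3p arms, the families of miR-148a, miR-181a and miR-130a, which ran from 0.752-fold to 1.53-fold, and for 3 miRs of epithelium and liver and 2 of the miR-322 cluster.

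**Figure D3:**
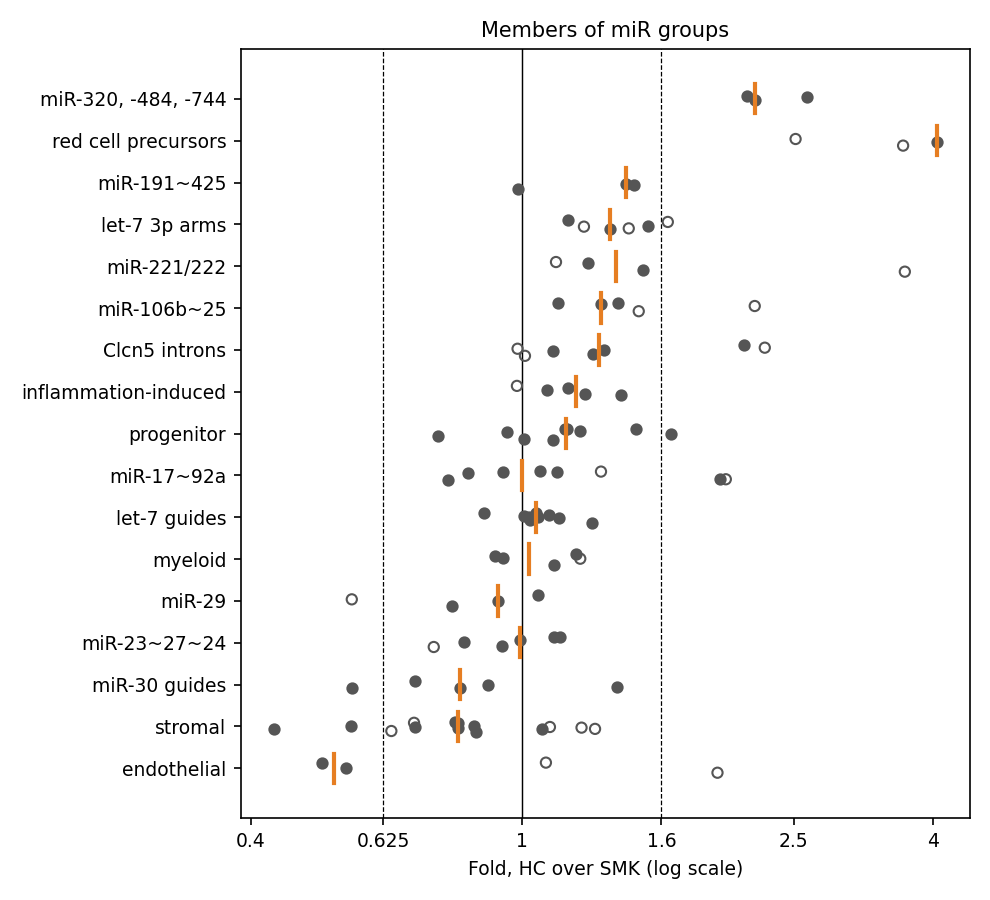
Fold of the HC library over the SMK library (log axis) for the members of 17 groups, 1 point per miR. Filled points reached 100 RPM in either library, open points did not but had at least 30 counts in one library, and the orange bar is the median of the filled points. The endothelial miR-126a arms and most stromal miRs lie left of 1, whereas both arms of endothelial miR-139 (open points) lie right of it. MiR-320-3p, miR-484 and miR-744-5p lie right of 1.6, and miR-484 and miR-744-5p reached 100 RPM in HC only.

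The ratio of the 2 arms of a hairpin within a library does not depend on the scaling. It could be compared for 39 hairpins with at least 30 counts for each arm in both libraries. For 34 of them the ratio of 3p to 5p differed by no more than 1.6 times between HC and SMK. The interval lay above 1 for 12 hairpins and below 1 for 4. The largest change was that of miR-151, whose ratio of 3p to 5p was 10.7 in HC and 4.65 in SMK (2.30 times, 1.48 to 3.57). Then came miR-532, where the minor 3p arm had 76.0 RPM in HC and 33.5 RPM in SMK while the 5p arm was nearly level (2.05 times, 1.45 to 2.90). The ratio of miR-674 changed by 1.81 times (1.31 to 2.51), that of miR-139 by 1.78 times (1.15 to 2.77) and that of miR-145a by 1.61 times (1.01 to 2.54). In the let-7 family the minor arm let-7d-3p had 343.6 RPM in HC and 224.5 RPM in SMK (1.53-fold, 1.32 to 1.77), whereas let-7d-5p was at 1.05-fold (1.01 to 1.09), and the ratio changed by 1.458 times (1.254 to 1.696). In the other direction the ratio changed most for miR-15b (0.664 times, 0.468 to 0.941) and miR-425 (0.676 times, 0.537 to 0.852), where the 5p arms were at 1.447-fold and 1.46-fold and the 3p arms at 0.961-fold and 0.987-fold.

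GC content of the mature miR, which played no part in choosing the members, moved with the fold. Across the 139 miRs with a sequence, Pearson's r between GC content and log2 fold was 0.46 and Spearman's rho 0.41. These coefficients describe miRs of the same 2 libraries, which are not independent, and carry no p-value. In the third of miRs with the lowest GC content (up to 40.9%) the median fold was 0.995 and of 55 miRs none was higher and 1 was lower. In the third with the highest (from 52.2%) it was 1.30, and 9 of 38 were higher and 1 lower. Among these 9, miR-2137, miR-484, miR-744-5p and miR-149-5p reached 100 RPM in HC only, so the minimum bears on this count. With no minimum, Spearman's rho was 0.33 over 487 miRs. The 11 higher miRs with a sequence had GC contents from 50.0% to 85.7%, with a median of 58.3%, against 45.5% for all 139. Spearman's rho was 0.49 for the 56 miRs with a sequence and 1000 RPM in either library, and was 0.39 without miR-2137, the only one of the 3 largest folds with a sequence. Fold went little with length (rho 0.16) or with mean level (rho -0.14). After removal of a straight line on GC content, which also centers the folds, 4 of 139 miRs were higher and 6 lower. The same 139 held 11 higher and 4 lower before it. MiR-125b-5p was then at 1.44-fold and miR-92a-3p at 1.54-fold. The part of GC content in the single folds was not tested further, and the depths of the libraries, 1038986 counts in HC and 1670010 in SMK, differed as well.

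**Figure D4:**
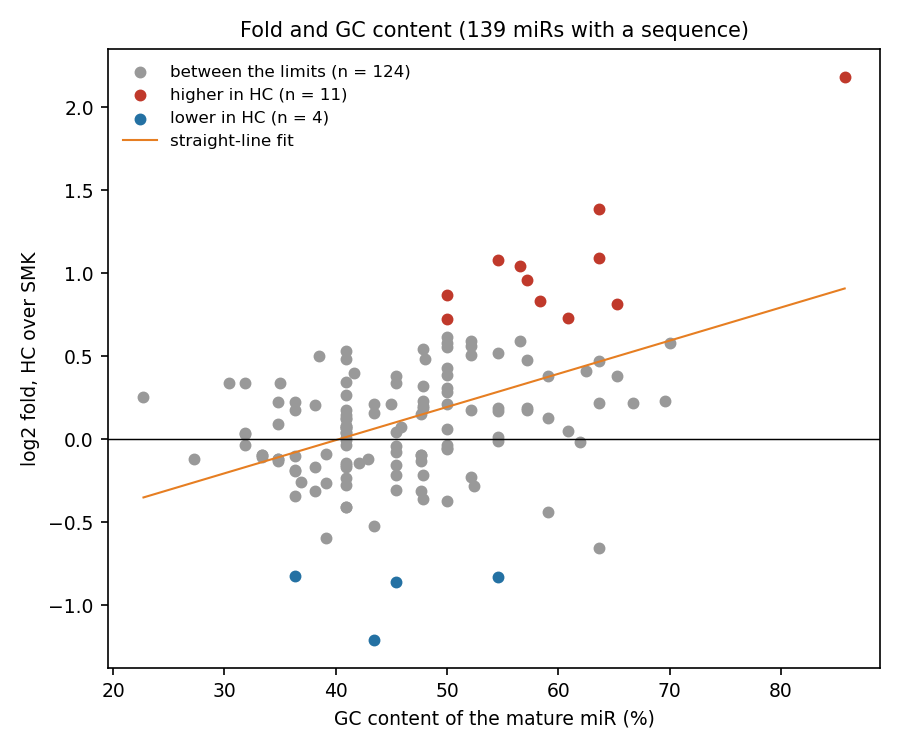
Log2 fold of the HC library over the SMK library (vertical axis) against the GC content of the mature miR in percent (horizontal axis) for the 139 miRs with a sequence, with a straight-line fit. The 11 higher miRs all lie at 50.0% GC or more, whereas the 4 lower ones lie from 36.4% to 54.5%.

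The aging and CTL libraries, which played no part in the folds, give the levels around those of HC and SMK. Of the 16 miRs higher in HC than in SMK, 15 had their lowest level of the 4 libraries in CTL, and for 13 the aging level lay between those of HC and SMK. Over all 156 miRs, CTL was lowest for 85 and aging between HC and SMK for 43. The choice of the 16 for a high level in HC and a low one in SMK bears on these counts, which are a description only. MiR-328-3p is an example, with 609.2 RPM in HC, 155.1 RPM in SMK, 279.2 RPM in aging and 43.7 RPM in CTL. MiR-744-5p had 195.4 RPM in HC, 74.8 RPM in SMK, 82.2 RPM in aging and 10.2 RPM in CTL. MiR-486b-5p differed from this order, since SMK (46.1 RPM), aging (36.3 RPM) and CTL (32.3 RPM) were close to each other and HC alone stood apart. Of the 6 miRs lower in HC than in SMK, 5 had their lowest level in aging, as did 37 of all 156. MiR-126a-3p had 16558 RPM in HC, 30016 RPM in SMK, 12424 RPM in aging and 25999.6 RPM in CTL, so that HC lay near aging and SMK near CTL. MiR-10b-5p had 455.3 RPM in HC, 1051 RPM in SMK, 187.4 RPM in aging and 581.5 RPM in CTL, and SMK was the highest of the 4. With 1 library each, these orders were not tested.

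**Figure D5:**
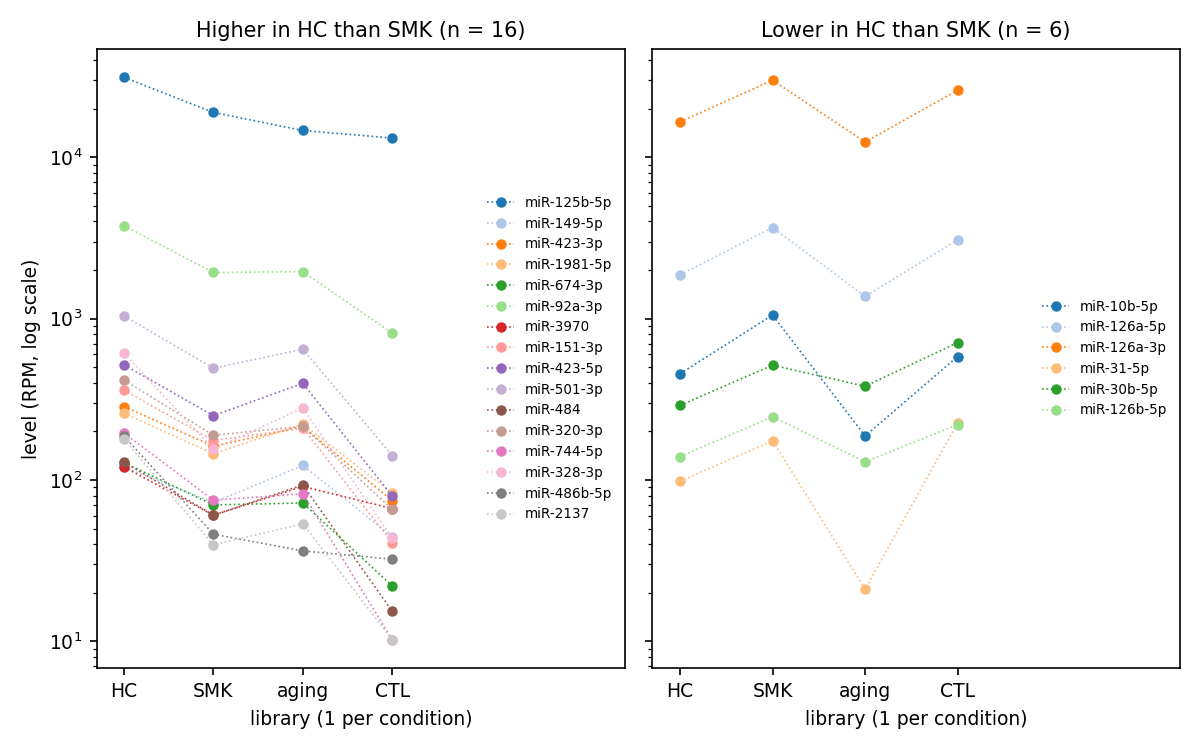
Level (RPM, log axis) of the 16 miRs higher (left) and the 6 miRs lower (right) in HC than in SMK, in the HC, SMK, aging and CTL libraries, 1 library per condition. Dotted lines join the values of 1 miR. Of the 16 higher miRs 15 are lowest in CTL, and 5 of the 6 lower miRs are lowest in aging.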

How the data were processed

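Small RNA was sequenced from 4 libraries of PACs, and only the HC and SMK libraries enter the comparison. The authors prepared the libraries with a QIAseq kit, used bowtie for stepwise mapping, beginning with perfect matches to miRBase version 21, and deposited RPM, that is reads per 1000000 after normalization by library size. By contrast, HTSeq 0.5.4, TopHat2 2.0.10 and bcl2fastq 2.20 are named in the submitters' processing notes, and which account describes the table is not known. Whether reads of the same molecular identifier were merged is not given in the sources used here. Each deposited RPM value was divided by the smallest of its library, which gave whole counts, within 0.001, for 100% of values, with 1 count equal to 0.962 RPM in HC and to 0.599 RPM in SMK. Total counts were 1038986 in HC and 1670010 in SMK. MiRs listed together by the table kept their 6 joint names.

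The miRs, lists and limits were chosen with earlier results of these data known. The study called miRs below 0.8-fold and above 1.6-fold over CTL, and the same 1.6-fold limit was used both ways here. MiRs were named by a rule: all past the limits, the 12 most abundant, members of 30 lists, the arm ratios farthest from 1, the largest seed families and those at the 100 RPM minimum. MiR-652-3p was taken off the Clcn5 list after the values were seen because it is not made there. Pairs for ratios within a library, other than arms, were chosen after the values were seen. The alternatives were 4 scalings, pseudocounts of 1 and 10 RPM, other minimums and limits, near-identical miRs summed and a GC trend removed. The scaling to total reads set the recovered counts over the total reads in the read summary of the study. Intervals were tested on simulated data. Positions of mature miRs come from RefSeq and host genes from GENCODE M21 (GRCm38), with genes of the same strand only. The work used Python 3.11.15, scipy 1.17.1, pandas 2.3.3, matplotlib 3.10.9, and edgeR 4.0.16 under R 4.3.3, which gave TMM factors only. The fold changes, target predictions and cell assays of the paper were not used.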

Additional observations from a re-analysis of the deposited data

How the results depend on the processing

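The depth limits folds near 100 RPM, the libraries have no replicates, and no interval covers differences between mice or cultures. No paired analysis was possible because each condition has 1 library, and for the same reason no replicate could be left out. Of 22 miRs past the limits (16 higher, 6 lower), no called fold changed sign. No lower call ended under any scaling, but this was fixed in advance. All 4 scalings moved every log2 fold downward, with shifts from -0.08 to -0.67. Higher calls ended for 2 miRs by the median ratio, 5 by TMM, 2 without miR-21a-5p in the totals, 12 with total reads and 7 with the GC trend removed, of the 11 with a sequence. TMM gave 11 lower. Total reads gave 64 past the limits, 4 higher and 60 lower. Removal of the GC trend gave 10, with 4 higher, among the 139 miRs with a sequence, which held 11 higher and 4 lower before. With 100 RPM in both libraries 14 were past the limits, 9 of them higher, with 1000 RPM in either 6 (3 higher, 3 lower), and with no minimum 208 (161 higher, 47 lower). The limits of the study gave 17 lower, 2-fold limits 10 (9 higher, 1 lower) and the narrowest limits tried 64 (47 higher, 17 lower). Intervals wholly past a limit were found for 14, with 3 lower. The remaining counts were within 1.5 times of 22, 16 and 6.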

Other observations

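Below 100 RPM, 77 miRs had at least 30 counts in both libraries, and 11 of these were above 1.6-fold and 3 below its inverse in HC over SMK. The lowest was miR-1a-3p, a miR of muscle, with 29.8 RPM in HC and 68.3 RPM in SMK (0.437-fold, 0.284 to 0.655). MiR-298-5p was at 0.576-fold (0.397 to 0.822), and miR-542-3p had 35.6 RPM in HC and 59.3 RPM in SMK (0.601-fold, 0.400 to 0.885). On the other side miR-505-5p had 84.7 RPM in HC and 40.1 RPM in SMK (2.11-fold, 1.52 to 2.95). The star arm miR-92a-1-5p, made only from the chromosome 14 cluster, was at 1.99-fold (1.27 to 3.13), beside 1.95-fold for miR-92a-3p. MiR-127-3p, of the imprinted Dlk1-Dio3 region, was at 1.76-fold (1.24 to 2.50), and the 6 miRs of that region in the table summed to 103.9 RPM in HC and 99.4 RPM in SMK. These miRs were chosen after their values were seen.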
